A study of Mus musculus with 6 samples.

Results

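The epidermal growth factor (EGF) family ligands and their ERBB receptors were examined in mouse colorectal cancer organoids treated with chemotherapy. The members were chosen by name, as genes of the family, with earlier results of these data known, and they were matched from gene identifiers to symbols in the count table: the ligands Areg, Ereg, Epgn, Hbegf, Tgfa, Btc and Nrg1 and the receptors Egfr, Erbb2 and Erbb3, 10 of the 24190 genes listed. Of these, 8 had enough counts to be tested, and Epgn and Nrg1 did not.

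The organoids were the MTO54 line, parental mouse tumor organoids (MTOs) that came from a tumor of a genetically engineered mouse and have the genotype labelled AKP. All 6 cultures had this genotype, were grown from single cells in a basement membrane extract with complete stem cell medium, and by the labels differed only in the last 2 days before harvest. In the 3 Folfiri cultures, the medium was replaced 2 days after seeding with medium holding SN38 at 100 nM, a topoisomerase I inhibitor and the active form of irinotecan, together with 5FU, which the labels give as 50 μg/μl, while the 3 control cultures received complete stem cell medium alone. The unit of the 5FU dose may be a misprint and was not settled here. A single line was used, and the labels name no added stromal cells. The labels do not say whether replicates came from separate passages, and p values therefore measure the spread between these cultures only.

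EGF family ligands are made as membrane-anchored precursors, which proteases such as ADAM17 and ADAM10 cut to release the soluble factor. AREG, EREG, EPGN, HBEGF, TGFA and BTC bind EGFR, several of them also bind ERBB4, and NRG1 binds ERBB3 and ERBB4. Bound receptors pair with each other, ERBB2 pairs without a ligand of its own, ERBB3 signals mainly through its partner's kinase, and the pairs feed the RAS to ERK and PI3K pathways, which in the intestinal epithelium sustain growth of the crypt and repair after injury.

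The organoids had the markers of epithelium. All 9 epithelial markers, among them Epcam, Cdh1 and Krt19, reached at least 1 CPM (a read count scaled to library size) in both groups, with summed levels of 5977 to 6947 CPM in control MTOs and 4818 to 4992 CPM after Folfiri. Of these, Cdx2 (log2 fold change -1.53), Epcam (-0.94), Cldn7 (-0.75), Krt19 (-0.62) and Krt8 (-0.27, but 0.0047 with total counts only) were called lower (edgeR). Cdh1 (0.21) was called higher (edgeR), a call kept in only 7 of 13 alternative fits. Summed fibroblast markers were between 1.08 and 1.44 CPM in controls and between 2.06 and 2.45 CPM after Folfiri, with 0 and 1 of the 7 listed genes at 1 CPM or more. Of these, Dcn (2 and 65 counts, log2 fold change 4.44, and 3.89 to 7.27 with a culture left out) and Pdgfra (28 and 107 counts, 1.54) were called higher (edgeR). Col1a1 (60 and 28 counts, -1.47) was called lower (edgeR), Col3a1 and Pdgfrb were at 0 in controls, and Lum was not in the table. Summed immune markers (21.3 to 26.0 and 21.5 to 22.5 CPM) consisted mainly of Cd68, with 1 and 2 of 7 genes at 1 CPM or more. Ptprc was called higher (29 and 99 counts, log2 fold change 1.39, edgeR), Csf1r had 0 and 8 counts, and Lyz2 and Tyrobp were at or near 0. Summed endothelial markers (72.2 to 125 and 65.7 to 76.4 CPM) came mainly from Cdh5, with Kdr at or near 0. The summed levels of enteroendocrine markers were at most 0.144 CPM in controls and 0.273 CPM after Folfiri, and those of Paneth cell markers 11.7 to 12.9 CPM and 6.30 to 8.50 CPM. The part of these marker differences in the results was not tested. The libraries held 22103591 to 30098210 counts, and control replicate 1 stood apart from the other 2 controls, with a chi-square per degree of freedom over genes of 22.4 to 23.7 against them, compared with 3.84 between those 2. Folfiri replicate 3 also stood apart, at 11.9 to 12.3 against the other Folfiri cultures, which were at 3.55 to each other. Levels below are CPM scaled with the trimmed mean of M values (TMM), in which Folfiri libraries had factors of 1.10 to 1.11 and controls 0.880 to 0.966. When libraries were scaled by their total counts alone, the median change over all tested genes went from 0.02 to 0.30 on the log2 scale, and the share of higher genes among the called ones from 51.0% to 63.3%.

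Of the ligand genes, 4 are neighbors on mouse chromosome 5 (GRCm38). Epgn (91027464 to 91035215), Ereg (91074622 to 91093646) and Areg (91139599 to 91148432) lie on the plus strand, with 47.2 kb between the starts of Epgn and Ereg and 65.0 kb between those of Ereg and Areg, and Btc (91357261 to 91402994) follows on the minus strand, its start 263 kb from that of Areg. The other members lie on 5 other chromosomes. Annotated exons on the opposite strand overlap those of Ereg, Tgfa, Nrg1 and Erbb2, and since the sources used here do not give the strand setting of the counting, their counts may hold reads of those neighbors. Because Areg and Btc sit in one cluster and moved in opposite directions, the 250 bases upstream of each are shown from the RefSeq promoter table (GRCm38.p6), which held 6 of the 10 members. Areg is read on the plus strand of chr5:91139349-91139598 and Btc on the minus strand of chr5:91402995-91403244, both 5′ to 3′ in lower case, and capitals mark matches to the searched motifs.
Areg: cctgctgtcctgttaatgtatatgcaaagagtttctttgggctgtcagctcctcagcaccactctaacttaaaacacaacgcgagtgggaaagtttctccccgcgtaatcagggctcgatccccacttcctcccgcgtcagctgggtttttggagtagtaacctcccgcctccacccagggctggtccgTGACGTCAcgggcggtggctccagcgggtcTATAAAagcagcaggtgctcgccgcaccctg
Btc: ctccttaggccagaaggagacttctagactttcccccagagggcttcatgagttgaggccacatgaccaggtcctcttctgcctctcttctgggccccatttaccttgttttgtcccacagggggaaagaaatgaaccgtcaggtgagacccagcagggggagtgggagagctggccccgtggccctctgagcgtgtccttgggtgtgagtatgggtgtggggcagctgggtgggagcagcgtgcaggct
The motifs searched, on either strand, were the cyclic AMP response element TGACGTCA, the AP-1 site TGACTCA, the TEAD site GGAATG, the TATA box TATAAA and the NF-kB consensus. The Areg sequence held TGACGTCA at bases -61 to -54 and TATAAA at bases -31 to -26 from the annotated start, and the letters of these 5 motifs did not occur in the Btc sequence. No match overlapped another. Epgn, the other cluster gene in the promoter table, held TATAAA at bases -86 to -81 from its start there and none of the other motifs. A link between these motifs and the levels was not tested. Among all 32851 promoters of the same length in the table, 1.55% held TGACGTCA, 4.46% TGACTCA, 12.6% GGAATG, 12.4% TATAAA and 7.25% the NF-kB consensus. The GC content was 57.2% upstream of Areg and 59.6% upstream of Btc.

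Folfiri was accompanied by higher levels of 3 ligand genes, Areg, Ereg and Hbegf, and by lower levels of 2 ligand genes, Btc and Tgfa, and of the receptor gene Erbb3, while Egfr and Erbb2 did not pass the test. Of the 8 tested members, 3 were thus called higher and 3 were called lower (edgeR, adjusted p below 0.05). Most of the transcriptome differed between the groups, with 79.1% of the 14692 tested genes called, 40.3% higher and 38.8% lower, and the share of members called was near this background. At a log2 fold change of at least 1 in size, Ereg and Hbegf were higher and Erbb3 lower, beside 19.5% of all tested genes higher and 16.8% lower. The groups did not overlap for the 3 higher and the 3 lower members, and of all tested genes 41.6% lay higher and 39.9% lower without overlap. With total counts only, 5 members were called higher and 2 lower. In bulk RNA, fewer cells expressing a gene and less RNA of it per cell cannot be told apart. When control replicate 1 or Folfiri replicate 3, the libraries that stood apart, was left out alone, 4 members were called higher and 2 lower, Tgfa being lost in each case and Erbb2 added in the first and Egfr in the second.

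**Figure D1:**
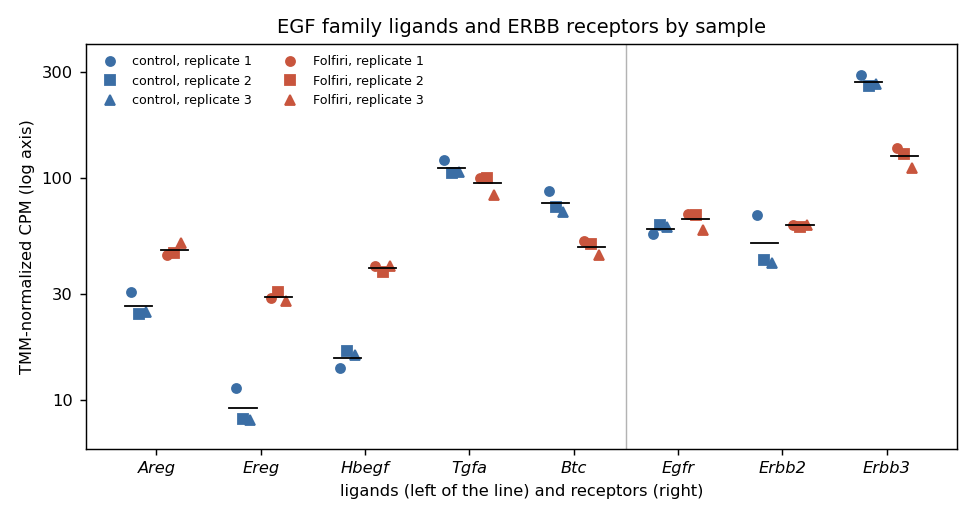
TMM-normalized CPM (log axis) of the 8 tested members in each of the 6 cultures, controls in blue and Folfiri in red, with a marker shape per replicate and a black bar at the group mean. The groups separate for Areg, Ereg, Hbegf, Tgfa, Btc and Erbb3 and overlap for Egfr and for Erbb2, where control replicate 1 (67.7 CPM) sits above all Folfiri cultures.

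Areg (ENSMUSG00000029378) encodes amphiregulin, a low-affinity EGFR ligand. Its levels were 30.4, 24.2 and 24.9 CPM in control replicates 1, 2 and 3 and 44.8, 45.9 and 50.6 CPM in Folfiri replicates 1, 2 and 3. Every Folfiri culture was above every control, and the highest control was replicate 1. The means were 26.5 ± 3.38 and 47.1 ± 3.06 CPM (SD, n = 3 each), and the log2 fold change was 0.83 ± 0.10 (SE), with a Benjamini-Hochberg adjusted p of 2.29e-05 in edgeR's quasi-likelihood fit. This change was above that of 76.6% of the tested genes.
Ereg (ENSMUSG00000029377), next to Areg, encodes epiregulin, which binds EGFR and ERBB4. It was at 11.3, 8.16 and 8.12 CPM in the controls and at 28.8, 30.6 and 27.8 CPM after Folfiri. The groups were widely separated, and again control replicate 1 was the highest control. The mean rose from 9.18 ± 1.81 to 29.0 ± 1.41 CPM (SD, n = 3 each), the largest log2 fold change among the tested members at 1.65 ± 0.13 (SE; edgeR, adjusted p = 7.79e-07), above that of 90.7% of the tested genes.
Hbegf (chromosome 18, 36504927 to 36515805) encodes heparin-binding EGF-like growth factor, whose precursor in other species serves as the receptor of diphtheria toxin. Its levels were 13.8, 16.5 and 15.8 CPM in the controls and 40.1, 37.6 and 40.0 CPM after Folfiri. Here control replicate 1 was the lowest control, unlike for Areg and Ereg, and the groups did not overlap. The mean rose from 15.4 ± 1.38 to 39.3 ± 1.41 CPM (SD, n = 3 each), which gave a log2 fold change of 1.35 ± 0.09 (SE; edgeR, adjusted p = 2.79e-07), the lowest p among the members.
Across the 13 alternative fits, which changed the scaling, the filter or the test, added the replicate number or left out a culture, Areg, Ereg and Hbegf were called higher each time, with log2 fold changes of 0.76 to 1.10, 1.56 to 1.92 and 1.28 to 1.63.

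Btc encodes betacellulin, a ligand of EGFR and ERBB4. It was at 87.4, 73.7 and 70.3 CPM in controls and at 51.5, 50.2 and 44.7 CPM after Folfiri. All Folfiri cultures lay below all controls. The mean fell from 77.1 ± 9.06 to 48.8 ± 3.63 CPM (SD, n = 3 each), which gave a log2 fold change of -0.66 ± 0.10 (SE; edgeR, adjusted p = 9.16e-05), and the 13 alternatives called it lower each time, at -0.73 to -0.39.
Tgfa (chromosome 6, 86195223 to 86275719) encodes transforming growth factor alpha, an EGFR ligand of the gut epithelium. Its levels were 120, 105 and 106 CPM in controls and 100.0, 99.6 and 83.7 CPM after Folfiri. The groups did not overlap, but the highest Folfiri culture and the lowest control were close. The log2 fold change was -0.23 ± 0.09 (SE; edgeR, adjusted p = 0.0383), with means of 110.4 ± 8.51 and 94.4 ± 9.31 CPM (SD, n = 3 each). With total counts only it became 0.05 (adjusted p = 0.705, edgeR), the opposite direction. The call was also lost with upper quartile scaling (-0.17, adjusted p = 0.111, edgeR) and without control replicate 1 (-0.16, 0.0793), Folfiri replicate 2 (-0.26, 0.0523) or Folfiri replicate 3 (-0.14, 0.134).

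Epgn and Nrg1 were barely detected. Epgn, the gene of the EGFR ligand epigen, had 2, 1 and 0 counts in the controls and 12, 5 and 6 counts after Folfiri, each Folfiri culture above each control. Nrg1 (chromosome 8, 31814551 to 32884029), the gene of the ERBB3 and ERBB4 ligand neuregulin 1, had 1, 3 and 0 counts and then 6, 2 and 8 counts, and these groups overlapped. Over the summed counts and the TMM-scaled library sizes, the ratio of rates was 5.91 for Epgn (3 against 23 counts, exact 95% interval 1.78 to 30.7) and 3.08 for Nrg1 (4 against 16 counts, 0.994 to 12.7), the latter interval covering 1. With total counts as library sizes, an alternative chosen after seeing the data, the ratios were 7.13 (2.15 to 37.1) for Epgn and 3.72 (1.20 to 15.3) for Nrg1, whose interval then lay above 1. These intervals cover counting error only, and neither gene entered the fit.

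The receptors differed from one another. Erbb3 (chromosome 10, 128567523 to 128589652) encodes the receptor of neuregulins with an impaired kinase, and it fell most among the members. Its levels were 289, 259 and 263 CPM in controls and 137, 128 and 111 CPM after Folfiri. No Folfiri culture came near a control. The mean fell from 270.2 ± 16.0 to 125 ± 13.2 CPM (SD, n = 3 each), which gave a log2 fold change of -1.11 ± 0.09 (SE; edgeR, adjusted p = 9.87e-07), and only 14.4% of the tested genes had a lower one. It was called lower in the 13 alternatives, at -1.18 to -0.84.
Egfr (chromosome 11, 16752203 to 16918158), the receptor that binds all the detected ligands other than neuregulin, was at 55.5, 61.4 and 60.0 CPM in controls and at 68.7, 68.1 and 58.0 CPM after Folfiri. The third Folfiri culture fell among the controls. The log2 fold change was 0.14 ± 0.09 (SE; edgeR, adjusted p = 0.161), with means of 59.0 ± 3.10 and 64.9 ± 6.01 CPM (SD, n = 3 each). It passed the threshold with total counts only, at 0.42 (adjusted p = 0.00142, edgeR), and without Folfiri replicate 3, at 0.22 (adjusted p = 0.0289, edgeR).
Erbb2 (chromosome 11, 98412470 to 98437716), which encodes the preferred partner of the other ERBB receptors, was at 67.7, 42.7 and 41.1 CPM in controls and at 61.5, 60.1 and 61.3 CPM after Folfiri. The groups overlapped only through control replicate 1, and the Folfiri cultures were nearly alike. The log2 fold change was 0.27 ± 0.16 (SE; edgeR, adjusted p = 0.148), with means of 50.5 ± 14.9 and 60.9 ± 0.765 CPM (SD, n = 3 each). Without control replicate 1 it was 0.54 (adjusted p = 5.18e-06, edgeR), and with total counts only 0.53 (adjusted p = 0.0329, edgeR).

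**Figure D2:**
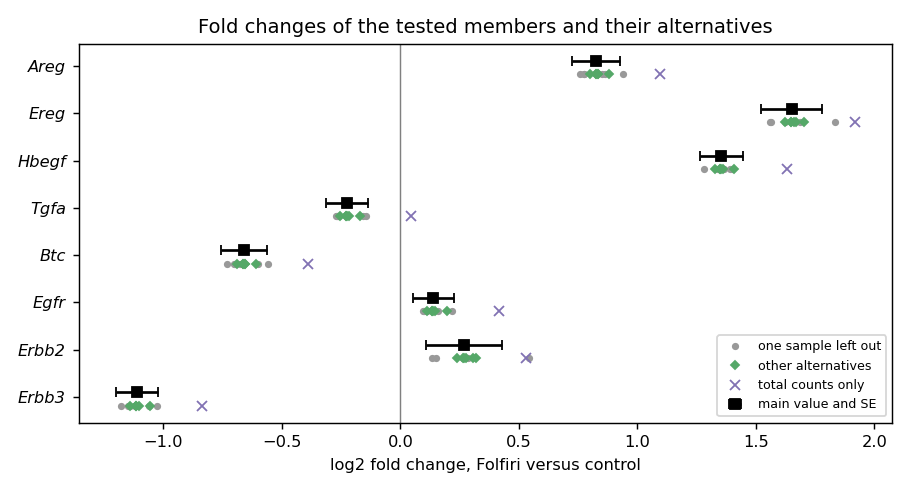
Log2 fold change of Folfiri versus control for the 8 tested members, with the reported value and its SE (black squares) and the values with one culture left out (grey), total counts only (purple crosses) and the other alternatives (green). Areg, Ereg and Hbegf stay to the right of 0 and Btc and Erbb3 to the left, whereas Tgfa reaches 0.05 with total counts only.

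To set the levels of different genes side by side, counts were divided by the length of the annotated exons and expressed as TPM, scaled to the same total in every library, which follows total counts and not TMM. In control MTOs, Areg (49.8 ± 10.6 TPM), Btc (38.9 ± 7.85 TPM) and Tgfa (38.7 ± 6.23 TPM) were the most abundant ligand transcripts (SD, n = 3 each). Areg overlapped Btc in this order, and Btc overlapped Tgfa. Hbegf (7.18 ± 0.164 TPM) and Ereg (5.10 ± 1.45 TPM) followed at much lower levels and did not overlap each other, and Epgn and Nrg1, at 0.0489 and 0.0112 TPM, overlapped. After Folfiri, Areg stood alone at 110.0 ± 2.60 TPM, ahead of Tgfa (41.5 ± 5.64 TPM), Btc (30.8 ± 3.47 TPM), Hbegf (23.1 ± 1.03 TPM) and Ereg (20.0 ± 1.61 TPM), with no overlap between neighbors. Epgn and Nrg1 remained last, at 0.394 and 0.0462 TPM. The length used mattered for this order: with the longest annotated transcript, Tgfa came before Areg in controls (45.0 and 40.4 TPM), and Hbegf before Btc after Folfiri (31.5 and 28.2 TPM).
Among the receptors, Erbb3 had the highest level in both groups (102 ± 14.5 TPM in controls and 59.3 ± 8.46 TPM after Folfiri), followed by Erbb2 (22.3 ± 8.59 and 33.3 ± 1.29 TPM) and Egfr (11.8 ± 0.353 and 16.3 ± 2.13 TPM), with no overlap between neighbors. This order was the same with the longest transcript.

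The makeup of the ligand transcripts was described as the share of each in their summed TPM, without a test. Areg made up 35.5% ± 1.01 in controls and 48.8% ± 3.09 after Folfiri, each with its SD over 3 cultures. Btc went from 27.8% ± 0.710 to 13.6% ± 1.03 and Tgfa from 27.8% ± 0.689 to 18.3% ± 1.83. Hbegf went from 5.25% ± 0.938 to 10.2% ± 0.378 and Ereg from 3.61% ± 0.329 to 8.86% ± 0.428. The shares of the 3 ligand genes called higher were larger after Folfiri, and those of the 2 called lower were smaller. Since the shares are parts of one sum, a larger share of some ligands goes with smaller shares of others. The share of Tgfa fell although its mean TPM went from 38.7 to 41.5.
Of the receptor transcripts, Erbb3 accounted for 75.2% ± 2.12 in controls and 54.3% ± 1.96 after Folfiri, Erbb2 for 16.0% ± 3.24 and 30.7% ± 2.30, and Egfr for 8.77% ± 1.16 and 15.0% ± 0.493 (SD, n = 3 each).
The sums themselves depended on the scaling. Summed ligand TPM was 139.8 ± 26.0 in controls (125 to 170) and 225.8 ± 8.74 after Folfiri (216 to 232), a log2 ratio of 0.69, whereas as TMM-normalized CPM per kilobase, an alternative chosen after seeing the data, it was 61.3 ± 6.22 and 79.4 ± 0.169, a log2 ratio of 0.37. Summed receptor TPM was 136.3 ± 23.4 and 108.9 ± 11.8, a log2 ratio of -0.32, and as TMM-normalized CPM per kilobase 59.8 ± 5.23 and 38.2 ± 2.69, a log2 ratio of -0.65 (SD, n = 3 each). Without control replicate 1, the log2 ratios of summed TPM were 0.86 for ligands and -0.17 for receptors.

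**Figure D3:**
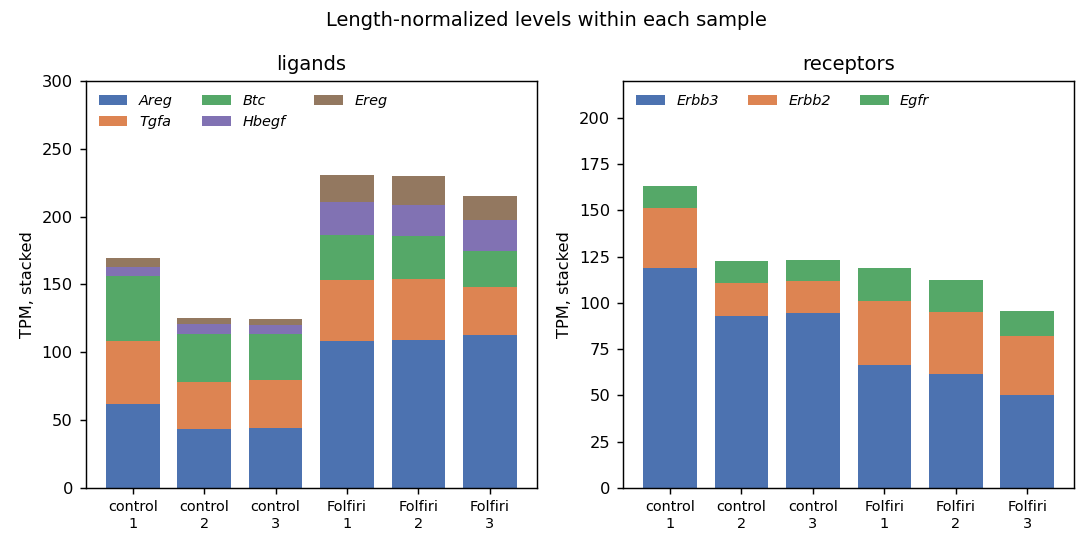
Stacked TPM of the ligand genes (left) and the receptor genes (right) in each of the 6 cultures, Epgn and Nrg1 being too low to see. Areg widens from the controls to the Folfiri cultures as Btc shrinks, and Erbb3 shrinks beside Erbb2 and Egfr.

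Ratios between members within a library do not depend on the scaling between libraries. The log2 ratio of Ereg to Areg counts was -1.43, -1.57 and -1.61 in controls and -0.64, -0.59 and -0.86 after Folfiri. All Folfiri cultures were above all controls, and the means differed by 0.84, Ereg having the larger change of the neighbors. The ratio of Hbegf to Areg differed by 0.52, that of Tgfa to Areg by -1.06 and that of Erbb3 to Egfr by -1.25, also without overlap. For each of these 4 ratios the exact two-sided permutation test gave p = 0.1 (0.125 after Benjamini-Hochberg adjustment over the 5 ratios), the smallest value that 3 against 3 allows, so the threshold of 0.05 was out of reach. The ratio of Erbb2 to Egfr overlapped between the groups, with a difference of 0.17 (exact two-sided permutation test, p = 0.6), which was 0.45 without control replicate 1. Without that library the Hbegf to Areg difference was 0.34.

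The changes of Areg and Ereg were read together with the genes around them. Within 500 kb on either side of the Areg start lie 16 genes of the table, of which 13 were tested, 9 higher and 3 lower (edgeR), beside 40.3% higher and 38.8% lower among all tested genes. The window was chosen after values were seen. The other higher genes were 7 chemokine genes on the Ereg side, with log2 fold changes from 0.78 for Cxcl15 to 7.29 for Cxcl3. Between these and Epgn lies Mthfd2l, a gene of mitochondrial folate metabolism, at -0.04 ± 0.08 (SE; edgeR, adjusted p = 0.654). Beyond Areg, Btc and Parm1 (-1.52) were lower, as was Rassf6 (-0.93) at the far end on the chemokine side. Several of these chemokine genes are paralogs that may share reads.

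**Figure D4:**
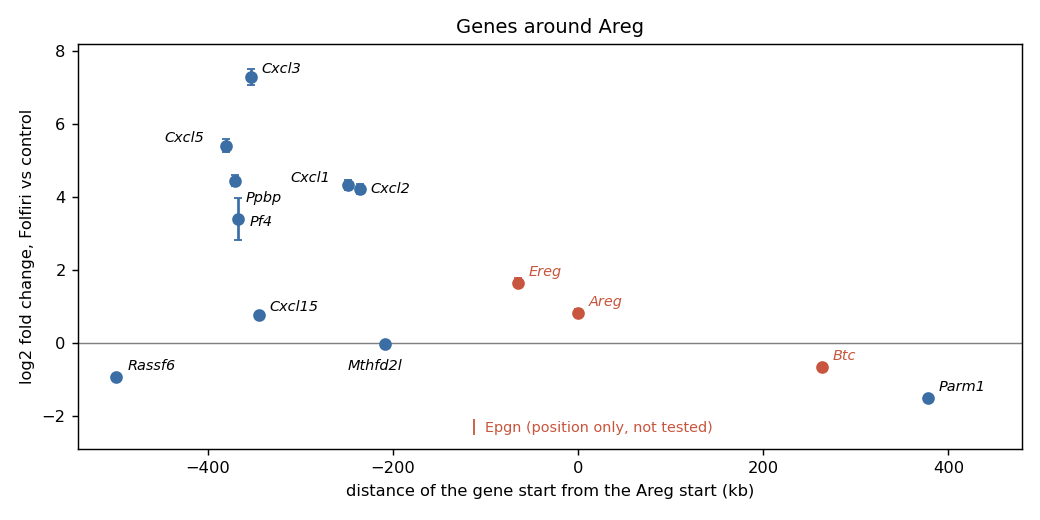
Log2 fold change (bars, SE) of the tested genes within 500 kb of the Areg start, by distance in kb, with EGF family genes in red and the position of the untested Epgn marked at the bottom. The chemokine genes on the left reach 7.29, Mthfd2l lies at -0.04, Ereg and Areg lie above 0, and Btc and Parm1 lie below.

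Other EGF family genes were near the limit of detection. Egf, the prototype ligand, had 6, 5 and 5 counts in controls and 17, 27 and 24 counts after Folfiri, which did not overlap, a log2 fold change of 1.69 ± 0.33 (SE; edgeR, adjusted p = 0.000691). Nrg4, an ERBB4 ligand, had 10, 12 and 9 counts and then 23, 24 and 21 counts, a log2 fold change of 0.75 ± 0.27 (SE; edgeR, adjusted p = 0.0249), a call that was lost in 6 of its 12 alternatives. Nrg2 had 1 and 7 counts in all, and Nrg3 and Erbb4 were not in the table. Exons of Egf and Nrg4 overlap antisense ones.

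Among genes that shed and carry the ligands, more were lower than higher. Of the 11 tested genes of ligand shedding and trafficking, 6 fell, 3 rose and 2 did not pass the test, with a median log2 fold change of -0.53 beside 0.02 over all tested genes. The share called was near the 79.1% of all tested genes, of which 40.3% were higher and 38.8% lower. The lower ones included 3 genes of ADAM proteases, Adam9, Adam10 and Adam17, while a further one, Adam15, was higher. The call of Adam15 was kept in 11 of 13 alternative fits. Adam17, the main sheddase of AREG, EREG, TGFA and HBEGF, was at 105, 106 and 108 CPM in controls and 48.6, 53.1 and 48.2 CPM after Folfiri, with a log2 fold change of -1.08 ± 0.07 (SE; edgeR, adjusted p = 2.19e-07). Adam10, the main sheddase of BTC and EGF, was at 472, 495 and 519 CPM and then at 243, 242 and 212 CPM (log2 fold change -1.09 ± 0.08, SE; edgeR, adjusted p = 6.23e-07). In each case the Folfiri cultures formed a tight group well below the controls. Adam9 (-2.06), of the same protease family, and Nrd1 (-1.68), which encodes nardilysin, an enhancer of HB-EGF shedding, fell further. The 3 higher genes were Rhbdf2 (0.67), which encodes the iRhom2 protein that brings ADAM17 to the cell surface, Frmd8 (0.64), whose product stabilizes iRhoms, and Adam15 (0.24). Nkd2, linked to the delivery of TGFA to the basolateral membrane, had no counts in controls and 11, 7 and 10 counts after Folfiri. With the control group set at a floor of 3 counts it was 7.19-fold higher, and the exact two-sided 95% lower limit was 5.47-fold. With total counts only, 5 genes of this list were called higher and 6 lower.

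Genes that restrain the receptors or turn them over moved in both directions, with 6 of 15 higher, 7 lower and 2 not called, near the 40.3% higher and 38.8% lower of all tested genes, and a median of 0.04. With total counts only the split was 8 higher and 5 lower. Lrig1, which encodes a membrane protein that promotes degradation of ERBB receptors and marks intestinal stem cells, was at 107, 108 and 112 CPM in controls and 16.5, 18.5 and 20.3 CPM after Folfiri. That is a log2 fold change of -2.56 ± 0.09 (SE; edgeR, adjusted p = 5.00e-09), the largest fall in the list. Cblb (-1.71) and Sh3kbp1 (-1.30), of the machinery for receptor ubiquitination and uptake, and Errfi1 (-1.17), whose product inhibits the EGFR kinase, also fell. In the other direction, the Lrig1 paralog Lrig3 rose from 11.1, 13.2 and 13.3 CPM to 29.0, 27.2 and 28.0 CPM (log2 fold change 1.17 ± 0.10, SE; edgeR, adjusted p = 1.35e-06), and Socs5 (0.66), Socs4 (0.60) and Rnf41 (0.56), genes of ubiquitin ligase components that act on ERBB receptors, rose by less.

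Downstream of the receptors, 5 of the 22 genes of the adaptors and the RAS to ERK and PI3K relay were higher, 10 lower and 7 not called, with a median of -0.06. Of all tested genes, 79.1% were called, 40.3% higher and 38.8% lower. Both genes of the kinases that phosphorylate ERK fell: Map2k1 was at 266, 307 and 307 CPM in controls and 65.6, 59.0 and 59.4 CPM after Folfiri (log2 fold change -2.26 ± 0.09, SE; edgeR, adjusted p = 7.12e-09), and Map2k2 fell by 1.30 on the log2 scale. Plcg1 (-1.26), the gene of a phospholipase that docks on EGFR, and Pik3r1 (-0.86), that of a regulatory PI3K subunit, were lower too. Pik3cb, the gene of a catalytic PI3K subunit, was at 64.1, 60.2 and 59.7 CPM and then at 171, 171 and 157 CPM (log2 fold change 1.44 ± 0.07, SE; edgeR, adjusted p = 3.80e-08), and Hras (1.04), Ptpn11 (0.46) and Nras (0.37) were also higher. The balance of this list depended on the scaling, with 11 genes higher and 5 lower with total counts only.

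The transcripts used as readouts of ERK activity did not move one way. Of the 12 genes of ERK feedback inhibitors, the Sprouty and Spred proteins and the dual-specificity phosphatases, 4 were higher (Spry3 at 1.06, Dusp9 at 0.91, Spred3 at 0.76 and Dusp7 at 0.59), 4 lower (Dusp4 at -1.05, Spry4 at -0.48, Spry1 at -0.33 and Spred1 at -0.30) and 4 not called, and with total counts only 7 were higher and 1 lower. Of the 15 ERK output genes, 4 of which are also in the feedback list, 6 were higher and 7 lower, with medians of -0.07 here and 0.04 in the feedback list, and with total counts only 7 were higher and 5 lower. These counts stand beside 40.3% higher and 38.8% lower among all tested genes, and nothing particular to either list is read from them. Ccnd1, the gene of cyclin D1, was at 92.2, 72.2 and 71.4 CPM in controls and 397, 404 and 383 CPM after Folfiri (log2 fold change 2.33 ± 0.10, SE; edgeR, adjusted p = 1.91e-08). The genes of the receptor Epha2 (2.08) and the transcription factors Fosl1 (2.02) and Myc (1.77) rose as well, with Myc at 95.4, 84.8 and 73.7 CPM and then at 288, 287 and 290 CPM. The lower genes were led by Etv1 (-1.09), which encodes an ETS factor and went from 25.1, 24.0 and 24.4 CPM to 12.7, 11.1 and 10.7 CPM, followed by Dusp4, Ier3 (-0.78) and Spry4.
Exons on the opposite strand overlap those of Adam15, Adam17, Frmd8, Nrd1, Lrig1, Plcg1, Spred3, Spry1, Ccnd1 and Fosl1, so part of their counts may come from other genes.

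**Figure D5:**
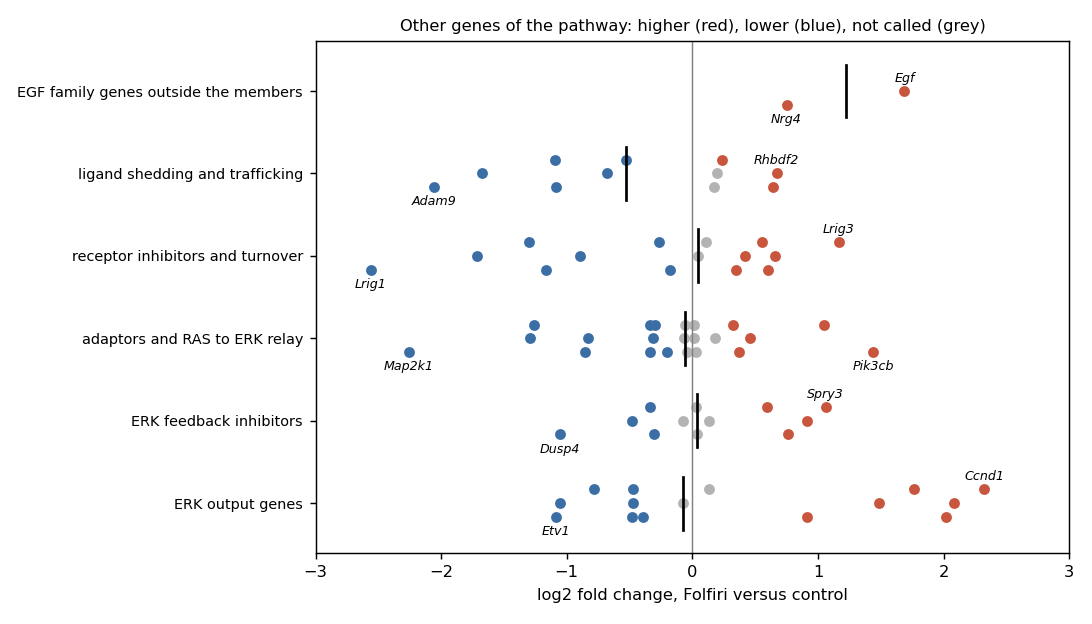
Log2 fold change of each tested gene in the 6 lists of other pathway genes, colored by call, with a black line at the list median and the genes at either end named. Shedding and trafficking genes lie mostly left of 0, with a median of -0.53, and the medians of the 4 lists below it are between -0.07 and 0.04.

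Hbegf, the tested member with the smallest p, was compared with all other tested genes by the Pearson correlation of log2 CPM over the 6 cultures. The 3 closest were Tekt5 (r = 0.9993), Stambpl1 (0.9992) and Sh3bp2 (0.9991). These values describe a contrast of 3 against 3 cultures that share their treatment, and 1070 genes had a correlation above 0.98 with Hbegf.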

How the data were processed

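RNA was poly(A) selected and sequenced from 3 control and 3 Folfiri cultures, grouped by the labels. The authors aligned the reads to GRCm38 (mm10) with STAR 2.5.2 and GENCODE vM25 annotation, sorted them with Sambamba, counted per gene with Rsubread, and deposited the raw counts without normalization. The strand setting and the treatment of reads with several positions are not given in the sources used here.

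From these counts, genes were matched to GENCODE vM21 on the same build (24168 of 24190 identifiers), and edgeR 4.0.16 in R 4.3.3 was run with its default expression filter, TMM normalization and the quasi-likelihood test, without covariates, in place of the DESeq2 test of the study. The Benjamini-Hochberg adjustment covered the 14692 tested genes, the threshold was 0.05, and SEs are the log2 fold change divided by the square root of the F statistic. TPM used the union of annotated exons and log2 ratios a pseudocount of 0.5 counts. Exact permutation tests and intervals used scipy 1.17.1. The members and lists were chosen with earlier results of these data known. All members are named, and from each list the called genes with separate groups and the largest change, at most 4 in each direction. The genes around Areg fall outside this rule and were taken from a window chosen after values were seen.

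As alternatives, libraries were scaled by total counts only, by the upper quartile or by the size factors of DESeq2 1.42.0, the filter was dropped or set to 1 CPM in 3 samples, the Wald test of DESeq2 was used, the replicate number was added as a block, and each culture was left out in turn. Others were the longest transcript for TPM, a pseudocount of 5, and, added after seeing the data, TMM-normalized CPM per kilobase in place of TPM and total counts in place of TMM-scaled library sizes for ratios of low counts. Only the main edgeR fit was tested on simulated counts, in which 200 genes were changed. That simulation cannot check the scaling between libraries when most genes differ, as they did here. Total counts of 22103591 to 30098210 per library limit the precision of the lowest genes, and intervals from counts cover counting error only. Promoter sequences are those of RefSeq, and the promoter table used here held no entry for Ereg, Hbegf, Nrg1 and Erbb3. Of the 6 members it held, only Areg and Btc are shown.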

Additional observations from a re-analysis of the deposited data

How the results depend on the processing

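Areg, Ereg and Hbegf were called higher and Btc and Erbb3 lower in each of the 13 alternative fits. With total counts only, 5 members were called higher in place of 3, and Tgfa reversed to 0.046. The counts of called genes became 5 higher for shedding and trafficking (3 before) and 11 higher and 5 lower for adaptors and relay (5 and 10). For ERK feedback inhibitors they became 7 higher and 1 lower (4 and 4). The median change over all tested genes went from 0.02 to 0.30, and which scaling is closer to the true levels was not tested. Of the 2 higher genes among the other EGF family genes, Egf and Nrg4, 1 was called without a filter, 1 with DESeq2 and 0 with the stricter filter, which removed both, and the counts were 1 to 2 with a culture left out. Members called ranged from 3 to 4 higher and 2 to 3 lower with a culture left out, and the genes called in all from 11021 to 12312, beside 11623. As TMM-normalized CPM per kilobase, the log2 ratios of the sums were 0.37 for ligands and -0.65 for receptors. The replicate numbers do not pair the cultures: deviations of same-numbered samples correlated at -0.12 to 0.04, and 2 of 6 samples correlated best with their own number. With the replicate number as a block 11499 genes were called, and Erbb2 was at 0.31 (adjusted p = 0.0313, edgeR). The longest transcript changed the order of ligand levels as given above, and the pseudocount of 5 reversed no ratio. Of the fold changes of the tested members and the named list genes under the alternatives, 588 kept their direction and side of the threshold. A further 15 lost the call, 5 gained one and 1, Tgfa, reversed. Cell type markers are outside these counts, and among them Krt8, called lower, was at 0.0047 with total counts only. Depth limits Epgn, Nrg1, Egf, Nrg2, Nrg4 and Nkd2, for which changes of the size seen rest on fewer than 100 counts in all.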
